A study of Mus musculus with 20 samples.

Results

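The integrated stress response genes were followed as 10 rows of the sense-strand gene count table, taken by gene symbol out of 21078 genes. They comprised the 4 kinases that phosphorylate the translation factor eIF2alpha (Eif2ak1, Eif2ak2, Eif2ak3 and Eif2ak4) and 6 genes further down the pathway (Atf4, Ddit3, Trib3, Asns, Chac1 and Ppp1r15a). All 10 were among the 13124 genes that passed the filter of a mean count of at least 5. The question was whether their counts followed the radiation dose, and whether the downstream genes followed the kinases.

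The counts came from the thoracic aorta of wildtype male C57BL/6 mice aged 10 to 12 weeks, collected 4 h after whole-body exposure to protons or to gamma rays. Each radiation type was represented by 10 mice, 1 at each of 0, 5, 10, 25, 50, 75, 100, 125, 150 and 200 cGy, with the 0 cGy mouse of each type as its unirradiated control. No dose had a replicate within a radiation type, so the tests below rest on trends over the 10 doses and on pairs of mice of the same dose. The paper's methods do not name cell sorting, and the RNA is of the whole vessel. Library totals lay between 6051657 and 6058006 counts, because the reads had been resampled to a common depth. A gene with 3 counts takes 4.95e-05% of such a library, a floor that covers counting error only.

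The integrated stress response is a shared answer of cells to very different stresses. Each kinase senses its own signal, and all of them phosphorylate the alpha subunit of eIF2, which slows translation in general while it favours translation of the mRNA of ATF4. ATF4, a transcription factor, then switches on genes of amino acid supply and stress adaptation, and PPP1R15A recruits a phosphatase that removes the phosphate again. Because the kinases act through phosphorylation and ATF4 is set largely at translation, mRNA counts show neither step, only the transcripts of the members and of the ATF4 target genes.

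The tissue label was checked against marker genes. All 5 smooth muscle markers were high, with Acta2, the smooth muscle actin, between 12507 and 27483 CPM (a gene's share of the library scaled to a common total) in the 20 mice. Markers of fat, blood and endothelium varied from mouse to mouse. The summed CPM of the 4 white fat markers was 1727 in the proton mouse at 75 cGy and 637 in the gamma mouse at 100 cGy, against 83.7 to 361 in the other 18 mice. In bulk RNA of this kind, fewer cells of a type and less RNA per cell cannot be told apart. The p53 target genes Cdkn1a, Mdm2 and Aen, taken as a reference for the irradiation itself, rose with dose in both types. The study selected these genes on the same mice as dose-responsive to both types, so their rise is not independent evidence. Cdkn1a, the cell cycle inhibitor p21, rose by 1.39 ± 0.22 (log2 per 100 cGy, SE) after protons and by 1.59 ± 0.24 after gamma rays, with edgeR adjusted p of 0.00518 and 0.00214.

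The members sat at very different levels in the unsorted aorta. On a scale of CPM per kilobase of exon, Atf4 was the most abundant of them, with a median level of 90.8 over the 20 mice. Ppp1r15a (13.7) and Ddit3 (13.3) followed, and their ranges overlapped. Among the kinases, Eif2ak1, the kinase that responds to lack of heme, had the highest median level at 8.50, above the whole range of the other kinases. Eif2ak3 (PERK, the kinase of the endoplasmic reticulum) had 5.44, Eif2ak2 (PKR, activated by double-stranded RNA) 3.17 and Eif2ak4 (GCN2, activated by uncharged tRNA) 2.90. The ranges of Eif2ak3 and Eif2ak2 overlapped, as did those of Eif2ak2 and Eif2ak4. By median, Asns (2.12), Trib3 (1.14) and Chac1 (0.61) were the least abundant members per length, though the highest value of Asns was 12.4. Chac1 had only 3 to 13 counts per mouse, which leaves its dose response poorly resolved at this depth.

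The genes sit apart in the genome. In the mm9 annotation GENCODE M1, Eif2ak2 lies on the minus strand at chr17:79251904-79281913 and Eif2ak4 on the plus strand at chr2:118214353-118300970. Atf4 is at chr15:80085614-80087970, and Asns, which makes asparagine, is at chr6:7625169-7643254 on the minus strand. All 10 are annotated as protein coding.

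The promoters of the members were searched for the short site that ATF4 binds with C/EBP partners, because that site is how ATF4 is known to reach its target genes. The letters TGATGNAA, on either strand, were found in 3.97% of 32851 mouse promoter windows from RefSeq (GRCm38.p6, 250 bases before to 50 after each start). Of the 10 members, 3 held a match, all of them downstream genes. These were Asns, Trib3, a pseudokinase that restrains the pathway, and Chac1, an enzyme that degrades glutathione. Parts of these windows are printed 5′ to 3′ on the strand of the gene, with the match in capitals. The match began 23 bases before the start in Asns, 14 bases after the first base in Trib3 and 193 bases before the start in Chac1. In Trib3 and Chac1 the letters lie on the opposite strand.
Asns (chr6:7693185-7693284, minus strand): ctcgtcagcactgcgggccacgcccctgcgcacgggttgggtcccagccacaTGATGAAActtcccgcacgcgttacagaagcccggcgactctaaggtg
Trib3 (chr2:152344031-152344130, minus strand): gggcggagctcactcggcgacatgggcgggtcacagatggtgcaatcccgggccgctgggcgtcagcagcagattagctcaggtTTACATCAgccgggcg
Chac1 (chr2:119350997-119351096, plus strand): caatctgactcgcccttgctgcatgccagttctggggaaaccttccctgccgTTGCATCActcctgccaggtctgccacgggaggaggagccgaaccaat
Eif2ak2 is a known interferon-inducible gene, and its window is shown because its edgeR dose slope was the steepest of the members that were called. It held AAACGAAA 20 bases after its first base, a match to AANNGAAA, the core that interferon regulatory factors bind. Those letters are common, being found in 23.9% of all windows and in those of 4 of the 10 members, with no TGATGNAA match in the kinase windows.
Eif2ak2 (chr17:78882543-78882642, minus strand): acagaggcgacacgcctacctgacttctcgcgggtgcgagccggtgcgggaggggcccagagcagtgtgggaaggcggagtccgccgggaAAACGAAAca

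Dose responses were called where edgeR's log2 slope on dose had a Benjamini-Hochberg adjusted p under 0.1 over all tested genes. By this rule Eif2ak2 and Eif2ak4 rose with dose in both radiation types, and no other member was called in either direction. Over all tested genes, 1.6% rose and 0.16% fell with proton dose, and 5.44% rose and 2.21% fell with gamma dose. The slopes of the kinases had a median of 0.22 after protons and 0.15 after gamma rays, and those of the 6 downstream genes −0.06 and −0.10, where the median of all tested genes was 0.00 and 0.01.

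**Figure D1:**
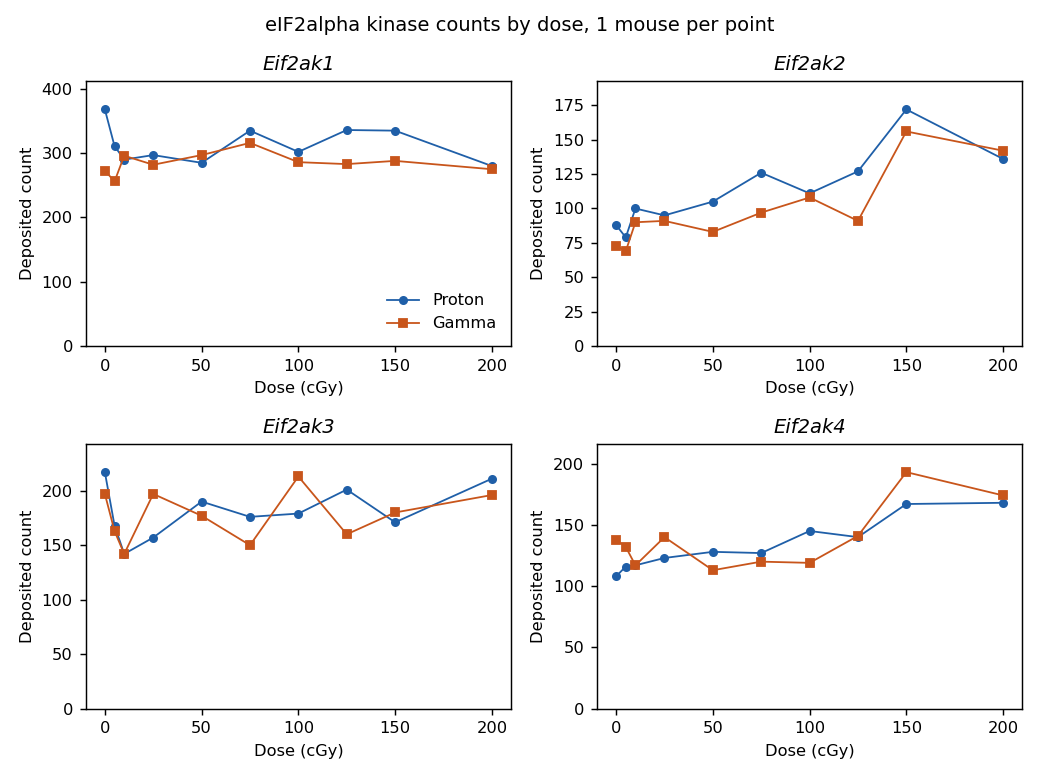
Deposited counts of the 4 eIF2alpha kinases (vertical axes, from 0) against dose in cGy (horizontal axes), with blue circles for proton mice and orange squares for gamma mice, 1 mouse per point. Eif2ak2 and Eif2ak4 are highest at 150 and 200 cGy in both types, while Eif2ak1 and Eif2ak3 show no such step.

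Eif2ak2 ranged from 79 to 172 counts after protons, with a median of 108. After gamma rays it ranged from 69 to 156, with a median of 91. In both types the 5 cGy mouse was lowest and the 150 cGy mouse highest, and the mice at 150 and 200 cGy lay above all mice of the lower doses. The count at 200 cGy was 1.55 times that at 0 cGy after protons (136 against 88) and 1.95 times after gamma rays (142 against 73). The edgeR slope was 0.43 ± 0.09 (log2 per 100 cGy, SE) after protons, with an adjusted p of 0.0368. After gamma rays it was 0.47 ± 0.09, with an adjusted p of 0.0115. Eif2ak2 belongs to the genes that the study itself selected on these mice as dose-responsive to both types, so its rise here is not independent evidence. Its proton call was lost without the proton mouse at 150 cGy (slope 0.35, adjusted p = 0.216) and its gamma call without the gamma mouse at 200 cGy (slope 0.50, adjusted p = 0.106), by the same edgeR fit.

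Eif2ak4 rose in smaller steps. Its counts ranged from 108 to 168 after protons, with a median of 127.5, and from 113 to 193 after gamma rays, with a median of 135. Proton counts climbed nearly dose by dose, from 108 in the unirradiated mouse to 145 at 100 cGy and 168 at 200 cGy. Gamma counts showed no such climb, lying between 113 and 141 from 0 to 125 cGy and at 193 and 174 in the mice at 150 and 200 cGy. The edgeR slope was 0.32 ± 0.08 after protons (adjusted p = 0.0623) and 0.23 ± 0.08 after gamma rays (adjusted p = 0.0899). Both adjusted p-values were near the threshold. The proton call was lost on leaving out the proton mouse at 0, 5, 10, 25, 150 or 200 cGy, with slopes of 0.29 to 0.33. The gamma call was lost in 13 of 20 such fits, with slopes of 0.16 to 0.25, namely without the proton mouse at 0, 5, 10, 25, 50 or 200 cGy or the gamma mouse at 5, 10, 25, 50, 75, 150 or 200 cGy.

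A rank test that asks only for a monotonic trend gave a partly different picture. The exact two-sided permutation test of Spearman's rho over all dose orders called Eif2ak4 after protons, with rho 0.976 and an adjusted p of 0.055. Eif2ak2 missed the threshold after protons (rho 0.952, adjusted p = 0.109) and passed it after gamma rays (rho 0.881, adjusted p = 0.0925) in the same permutation test. Eif2ak4 had a rho of 0.50 after gamma rays, which did not pass (permutation adjusted p = 0.486). By this test 0.0838% of all tested genes rose and 0% fell with proton dose, while 1.17% rose and 0.625% fell with gamma dose. The count of 0 falling proton genes compares with 357 at an unadjusted p under 0.05. With 9 mice in place of 10 the proton call of Eif2ak4 was kept only on leaving out the mouse at 75 cGy (rho of 0.967 to 0.983 over the 10 such tests), and the gamma call of Eif2ak2 in none of 10 (rho of 0.854 to 0.917).

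In both types the 2 highest counts of Eif2ak2 and of Eif2ak4 were those of the mice at 150 and 200 cGy. Counts of these mice lay above every count from 0 to 125 cGy in 10.8% of all tested genes after protons, in 13.4% after gamma rays and in 8.01% in both types. The same 4 mice stood apart in base composition. The correlation across 9702 genes between a gene's deviation and its GC content was −0.40 to −0.35 in them and −0.02 to 0.28 in the other 16 mice. Among these 16, the mice at 5 cGy had the highest value of each type. Eif2ak2 has a GC content of 43.9% and Eif2ak4 of 49.9%, where the median tested gene has 50.4%. When the fit was corrected for GC and length, the slope of Eif2ak2 was 0.35 after protons (edgeR adjusted p = 0.105) and 0.39 after gamma rays (adjusted p = 0.033). That of Eif2ak4 was 0.24 and 0.16, with edgeR adjusted p of 0.249 and 0.344. Over all tested genes 68 rose with proton dose and 213 with gamma dose in the corrected fit, against 210 and 714 without correction. In the same 4 mice the summed CPM of the 4 fibroblast markers was 983 to 1499, against 1958 to 3408 in the other 16. Of these 4 markers 1 was separated in this way, Col1a1, whose median of 1756 CPM made up most of the sum, and Pdgfra, Dpt and Lum overlapped between the 4 mice and the other 16. The share of all genes that were lower in these 4 mice than in the other 16 is not given here, so no trait of fibroblasts is read from it. Pearson's r of the fibroblast sum with Eif2ak2 was −0.67 over the 10 proton mice and −0.80 over the 10 gamma mice. With Eif2ak4 it was −0.71 and −0.78. None of these passed adjustment (permutation adjusted p of 0.238, 0.167, 0.19 and 0.167). Over 0 to 125 cGy r was −0.04 and −0.19 for Eif2ak2 and 0.03 and 0.01 for Eif2ak4. Whether the fibroblast share had a part in the kinase counts was not tested. With doses of 0 to 125 cGy alone, the slopes of Eif2ak2 were 0.42 after protons and 0.27 after gamma rays, those of Eif2ak4 0.26 and −0.05, and edgeR called none (unadjusted p of 0.0031, 0.0454, 0.0182 and 0.598). The proton slopes were thus 0.42 against 0.43 with all doses for Eif2ak2 and 0.26 against 0.32 for Eif2ak4, while the gamma slope of Eif2ak4 turned in sign. Of all 13144 genes tested at 0 to 125 cGy, 13 rose with proton dose and 29 with gamma dose.

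The other kinases were not called. Eif2ak1 ranged from 280 to 368 counts after protons and from 256 to 316 after gamma rays. Its highest proton count was that of the unirradiated mouse and its lowest that of the 200 cGy mouse, and its slopes were −0.02 ± 0.06 and 0.00 ± 0.06. Eif2ak3 ranged from 142 to 217 counts after protons, with a median of 177.5, and from 142 to 213 after gamma rays, with a median of 178.5. In both types its lowest count was at 10 cGy, and its slopes were 0.12 ± 0.09 and 0.06 ± 0.09. The 95% intervals of these 4 slopes ended at 0.29 at most, so a rise of the size fitted for Eif2ak2 lay outside them.

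Atf4 mRNA, the hub of the pathway, was not called in either type. Its counts ranged from 862 to 1106 after protons, with a median of 936.5, and from 894 to 1069 after gamma rays, with a median of 952. After protons the mice at 0 and 5 cGy had 1045 and 1106 counts and those at 150 and 200 cGy had 862 and 895. After gamma rays the mice at 0 and 5 cGy had 950 and 1010 counts and those at 150 and 200 cGy had 900 and 1003, so that the ends overlapped. The slope was −0.10 ± 0.05 after protons, with a 95% interval from −0.21 to 0.01 (edgeR adjusted p = 0.454), and −0.01 ± 0.05 after gamma rays. Spearman's rho with proton dose was −0.77, with a permutation p of 0.0126 that did not pass adjustment (0.715). On TMM-scaled CPM in place of counts this rho was −0.64 (permutation p = 0.0544). With the GC and length correction the proton slope was −0.05 ± 0.06 (edgeR adjusted p = 0.958).

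**Figure D2:**
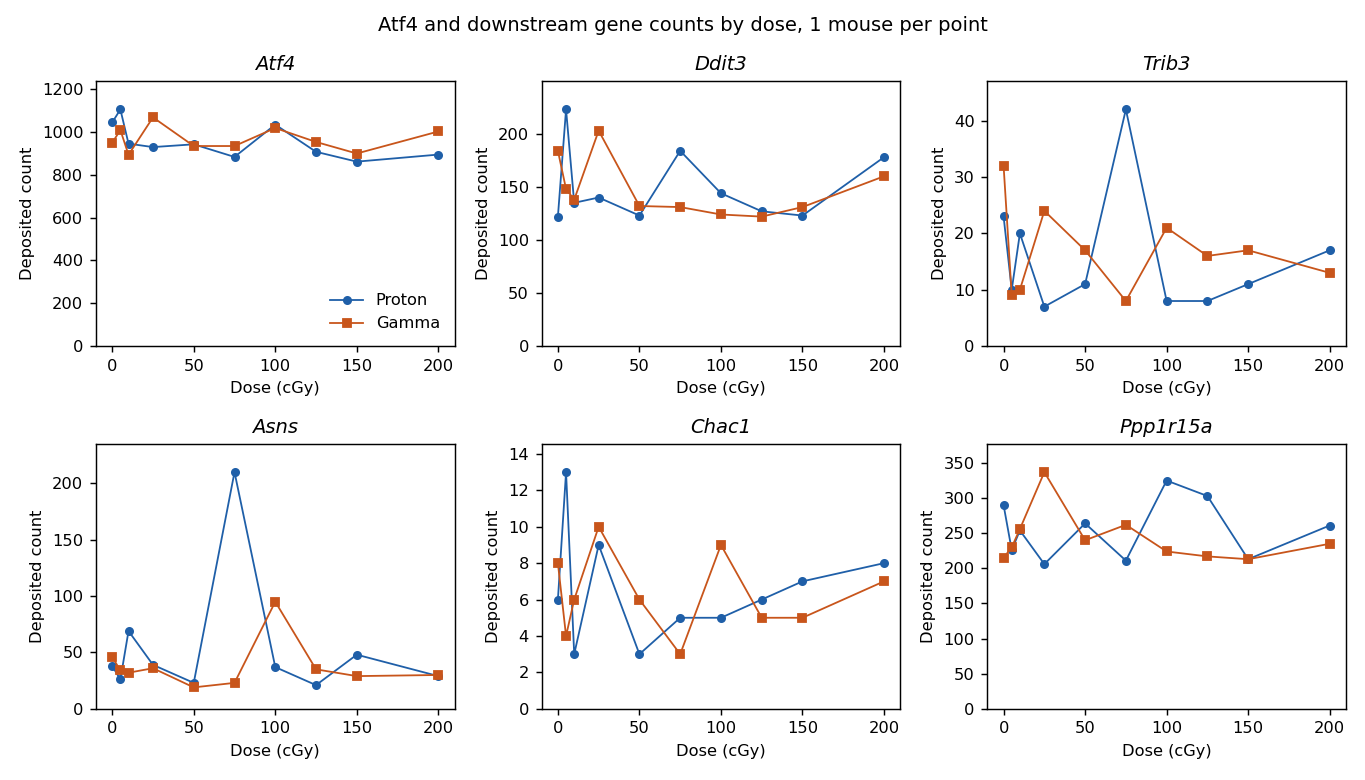
Deposited counts of Atf4 and 5 downstream genes (vertical axes, from 0) against dose in cGy (horizontal axes), with blue circles for proton mice and orange squares for gamma mice, 1 mouse per point. None of these genes is called for dose, and single mice stand out, such as 210 Asns counts in the proton mouse at 75 cGy.

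None of the genes downstream of Atf4 was called for dose. Ddit3, which encodes the death-promoting factor CHOP, ranged from 122 to 223 counts after protons, with a median of 137.5, and from 122 to 203 after gamma rays, with a median of 135. Its proton mice at 5, 75 and 200 cGy were high with 223, 184 and 178 counts, and its gamma mice at 0 and 25 cGy with 184 and 203. The slopes were −0.01 ± 0.13 and −0.14 ± 0.13. Within gamma doses of 0 to 125 cGy its rho was −0.857 (exact permutation p = 0.0107, adjusted p = 0.408), and the mice at 150 and 200 cGy had 131 and 160 counts.

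Trib3 and Asns were set apart by single mice. Trib3 ranged from 7 to 42 counts after protons, with a median of 11, and from 8 to 32 after gamma rays, with a median of 16.5. Asns ranged from 21 to 210 counts after protons, with a median of 37.5, and from 19 to 95 after gamma rays, with a median of 33. The highest proton mouse for both genes was that at 75 cGy, and the highest gamma mouse for Asns was that at 100 cGy, the same mice that had the highest fat markers of their type. Without these mice no proton mouse exceeded 69 Asns counts and no gamma mouse exceeded 46. The slopes had wide intervals, with −0.15 ± 0.51 and 0.01 ± 0.48 for Asns and −0.13 ± 0.36 and −0.19 ± 0.36 for Trib3, so that a change of the size of the Eif2ak2 slope was not detectable for either gene.

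Asns moved with the white fat markers Adipoq, Plin1, Lep and Cidec, all 4 of which were highest in the same mouse of each type as Asns. Over the 10 proton mice Pearson's r between Asns and their summed CPM on the log2 scale was 0.957, with a permutation p of 0.00022 and an adjusted p of 0.0352 over 160 relations of 8 marker lists to the members. Spearman's rho was 0.879 (permutation p = 0.00168, adjusted p = 0.269). Without the proton mice at 10 and 75 cGy, the farthest from the median, r was 0.738. Over the 10 gamma mice r was 0.782 and rho 0.648 (permutation p of 0.025 and 0.0494, adjusted p of 0.19 and 0.455), and r was 0.689 without the mice at 10 and 100 cGy. No other of the 160 relations passed adjustment for r. White fat was not the list closest to Asns after gamma rays, where r was 0.906 with brown fat markers (permutation p = 0.0038, adjusted p = 0.167) and −0.874 with smooth muscle markers (permutation p = 0.00274, adjusted p = 0.167). Without the mice at 10 and 100 cGy the brown fat value was 0.863, and without those at 50 and 100 cGy the smooth muscle value was −0.398. After protons r with brown fat was 0.774, with smooth muscle −0.827 and with skeletal muscle 0.830 (permutation p of 0.0204, 0.0593 and 0.0275, adjusted p of 0.19, 0.306 and 0.20). Without the 2 mice farthest from the median of each list, among them the one at 75 cGy, these were 0.413, 0.0586 and 0.552. The skeletal muscle sum of the proton mouse at 75 cGy was 70.5 CPM, of which Ckm alone made up 65.3. Only 1 of the 6 skeletal muscle markers was highest in that mouse, so this relation is not one of the whole list. For Trib3, r with white fat was 0.804 after protons and 0.475 after gamma rays (permutation p of 0.00898 and 0.157, adjusted p of 0.167 and 0.509), with rho of 0.576 in both. The proton value fell to 0.30 without the same mice, and the gamma value was 0.538 without those at 10 and 100 cGy. Brown fat markers were also highest in these mice, at 2406 CPM in the proton mouse at 75 cGy and 939 CPM in the gamma mouse at 100 cGy, and smooth muscle markers were lowest there, at 25899 and 38361 CPM. None of the fat markers was at 0 in any mouse, and the part of adjacent fat in the Asns and Trib3 counts was not tested.

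**Figure D3:**
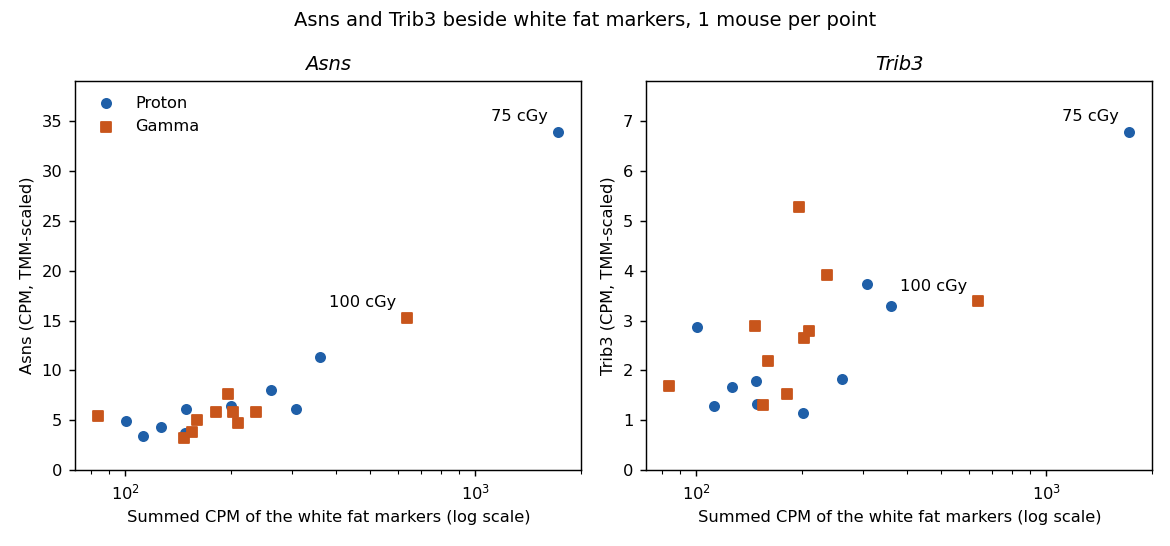
Asns (left) and Trib3 (right) in TMM-scaled CPM (vertical axes, from 0) against the summed CPM of 4 white fat markers (horizontal axes, log scale), with blue circles for proton mice and orange squares for gamma mice, 1 mouse per point. The labelled proton mouse at 75 cGy and gamma mouse at 100 cGy lie at the right, with Asns at 33.96 and 15.3 CPM.

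Chac1 and Ppp1r15a completed the downstream set. Chac1 ranged from 3 to 13 counts after protons and from 3 to 10 after gamma rays, with a median of 6 in both types and slopes of −0.02 ± 0.29 and −0.08 ± 0.30. Ppp1r15a, the stress-induced phosphatase subunit GADD34 that closes the feedback loop, ranged from 206 to 325 counts after protons, with a median of 257.5. After gamma rays it ranged from 213 to 337, with a median of 232.5. Its slopes were 0.06 ± 0.10 and −0.12 ± 0.10, opposite in sign, and the test of their difference did not pass (0.17 ± 0.14, edgeR unadjusted p = 0.249). Of the 12 downstream slopes, 0 had an unadjusted edgeR p under 0.05, and DESeq2 called none, giving no adjusted p for Chac1 in either type or for Trib3 after gamma rays. Among all 13124 tested genes, 1745 proton slopes and 2413 gamma slopes had an unadjusted edgeR p under 0.05. The wide intervals of Asns, Trib3 and Chac1 left little room to reach it.

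**Figure D4:**
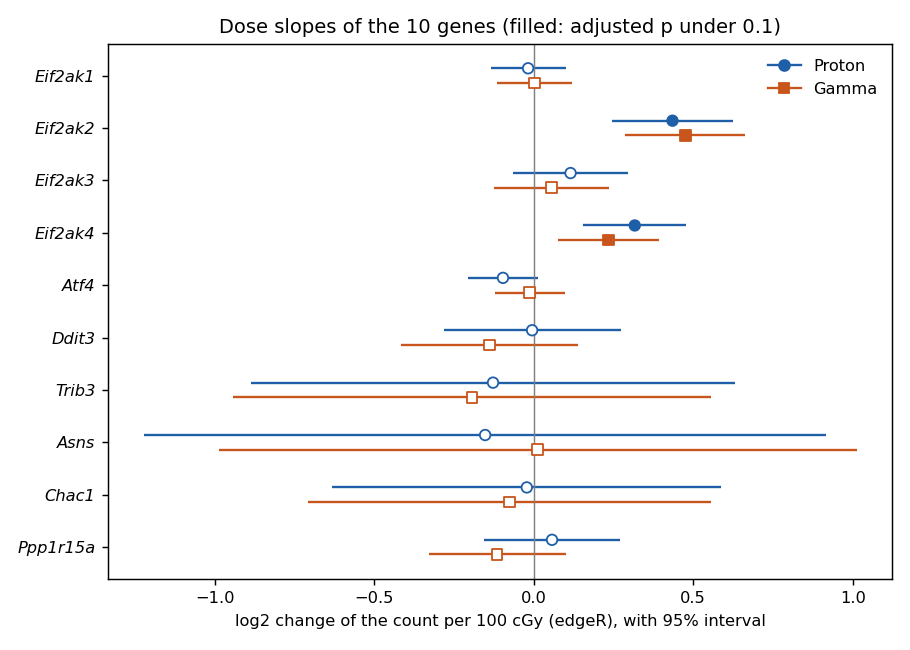
edgeR log2 slopes per 100 cGy (horizontal axis) of the 10 members (rows), as blue circles for protons and orange squares for gamma rays, with bars for 95% intervals. Filled symbols mark an adjusted p under 0.1, which only Eif2ak2 and Eif2ak4 reach, and the intervals of Asns, Trib3 and Chac1 are the widest.

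The downstream genes shared some of their highest mice. In the gamma series the 25 cGy mouse had the highest count of Atf4, Ddit3, Chac1 and Ppp1r15a. In the proton series the 5 cGy mouse had the highest count of Atf4, Ddit3 and Chac1. For Chac1 these were only 10 counts in the gamma mouse and 13 in the proton mouse. The share of all genes that were highest in these mice is not given here, so no trait of these genes is read from it. The summed CPM of 10 immediate early genes, which respond fast to handling and other stimuli, was 856 in the gamma mouse at 25 cGy, the highest of its type. In the proton mouse at 5 cGy it was 531, in the middle of its type.

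Whether the downstream genes followed the kinases was examined mouse by mouse, with 58 relations computed within radiation types on log2(CPM + 1), for each kinase with each downstream gene and for Atf4 with its targets. After adjustment by the permutation test 0 of 58 passed, by Pearson's r or by Spearman's rho. At an unadjusted permutation p under 0.05 there were 3 by r and 5 by rho. Chance alone puts a share of about 0.05 of the 58 under this threshold, so the pairs below are descriptions. The largest by r was Eif2ak3 with Chac1 over the 10 gamma mice (r = 0.758, permutation p = 0.0121, adjusted p = 0.328). Its rho was 0.758 (permutation p = 0.0147, adjusted p = 0.287), and its r was 0.85 without the mice at 10 and 75 cGy. On leaving out the gamma mouse at 10 cGy alone, r was 0.908 and passed (permutation p = 0.00081, adjusted p = 0.047), while rho was 0.833 and did not (adjusted p = 0.287). With the dose trend removed, rho was 0.879 (permutation adjusted p = 0.0882) and r was 0.801 (adjusted p = 0.239). Eif2ak3 with Trib3 in the same mice had r = 0.734 and rho = 0.685 (permutation p of 0.017 and 0.0351, adjusted p of 0.328 and 0.461), with r = 0.529 without those mice. Markers of other cells moved with all 3 genes in the gamma mice. For the summed immune markers r was 0.825 with Eif2ak3, 0.765 with Chac1 and 0.656 with Trib3. For the erythroid markers it was 0.818, 0.745 and 0.561, and for the endothelial markers 0.757, 0.711 and 0.683. By permutation these 9 relations had adjusted p of 0.167 to 0.40 over the 160, and the part of these cells in the relations was not tested. The largest by rho was Eif2ak1 with Asns over the 10 gamma mice, with rho = −0.818 (permutation p = 0.0057, adjusted p = 0.287). Its r was −0.548 (permutation p = 0.0983, adjusted p = 0.884), and −0.205 without the mice at 50 and 75 cGy. Eif2ak2, a kinase that rose with dose, ran against Atf4 over the 10 proton mice, with r = −0.742 and rho = −0.758 (permutation p of 0.014 and 0.0148, adjusted p of 0.328 and 0.287). Without the mice at 5 and 150 cGy this r was −0.568.

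The genes most like Eif2ak2 over the 20 mice by Pearson's r were Etnk1 (0.909), Gm14326 (0.888), Ano3 (0.883), March6 (0.877) and Ddx3x (0.877). Those most like Atf4 were Hdac7 (0.833), Map4k2 (0.793), Ipo13 (0.765), Wwc1 (0.748) and Sorbs3 (0.745). These are descriptions over the same 20 libraries, which share dose and base composition, and no other member stood in either list.

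Proton and gamma mice of the same dose were compared as pairs. Most members were higher in the proton mouse at 3 (Eif2ak4) to 6 (Eif2ak3) of 10 doses. The share of all genes that were higher at 8 or more doses is not given here. Eif2ak2 was higher in the proton mouse at 9 of 10 doses, with a fitted log2 difference of 0.18 ± 0.06, and Eif2ak1 at 8 of 10 doses, with 0.12 ± 0.05. Their unadjusted edgeR p of 0.0107 and 0.0406 did not pass adjustment (0.436 and 0.603). In this fit 0% of all tested genes were called, with 1032 at an unadjusted p under 0.05, while DESeq2 called 70 genes and no member. The slope itself differed between types in 0% of genes, with 254 at an unadjusted p under 0.05 in edgeR and 0 called by DESeq2. For Eif2ak2 the proton slope minus the gamma slope was −0.04, with a 95% interval from −0.31 to 0.23, and for Eif2ak4 it was 0.08, from −0.15 to 0.31.

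Other genes of the pathway were counted in lists. Of the 8 subunits of eIF2 and its exchange factor eIF2B, none was called in either type. Eif2s3x, a gamma subunit of eIF2, came closest, with slopes of 0.24 ± 0.09 and 0.21 ± 0.09 (edgeR adjusted p of 0.223 and 0.206). Of 12 phosphatase subunits and kinase regulators, none was called after protons and 1 rose after gamma rays. This was Impact, an inhibitor of GCN2 activation, with 0.14 ± 0.05 (edgeR adjusted p = 0.0977), a call lost in 14 of 20 fits that left out single mice. Ppp1r15b, the constitutive partner of the eIF2alpha phosphatase, had slopes of 0.09 ± 0.06 and 0.17 ± 0.06, and Gcn1l1, a coactivator of GCN2, −0.04 ± 0.05 and −0.11 ± 0.05, none of them called.

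Among the partners of ATF4 and related factors, 9 of 10 were tested, none was called after protons and 2 fell after gamma rays. These were Creb3l1, a factor of secretory cells, by 0.58 ± 0.11 (edgeR adjusted p = 0.0127), and Jdp2, a Jun dimerization protein, by 0.47 ± 0.12 (edgeR adjusted p = 0.04). Their proton slopes were −0.27 ± 0.11 and −0.16 ± 0.12, and the differences between types did not pass adjustment. Over all tested genes 2.21% fell with gamma dose. Creb3l1 has a GC content of 59.5% and Jdp2 of 57.3%, where the median tested gene has 50.4%. Their slopes with the GC and length correction are not given here. Atf5, a target and relative of ATF4, had slopes of −0.27 ± 0.12 and −0.29 ± 0.12 that were not called.

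The ATF4 targets of amino acid metabolism gave 1 call. Of 18 genes for amino acid synthesis and transport, 17 were tested, none was called after protons and 1 fell after gamma rays, with a median slope of 0.00 in both types. The gene was Aldh18a1, of proline synthesis, at −0.27 ± 0.09 (edgeR adjusted p = 0.0986), a call lost in 15 of 20 fits that left out single mice. Pck2 (−0.15 ± 0.07 and 0.00 ± 0.07) and Aldh1l2 (0.25 ± 0.12 and 0.10 ± 0.12), both of mitochondrial metabolism, were not called. Of 13 genes for aminoacyl-tRNA synthetases and tRNA export, which load or carry tRNA and are known ATF4 targets, none was called in either type. Iars had slopes of 0.17 ± 0.06 and 0.07 ± 0.06, Wars −0.06 ± 0.07 and −0.19 ± 0.07, and Eprs 0.16 ± 0.06 and 0.14 ± 0.06.

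**Figure D5:**
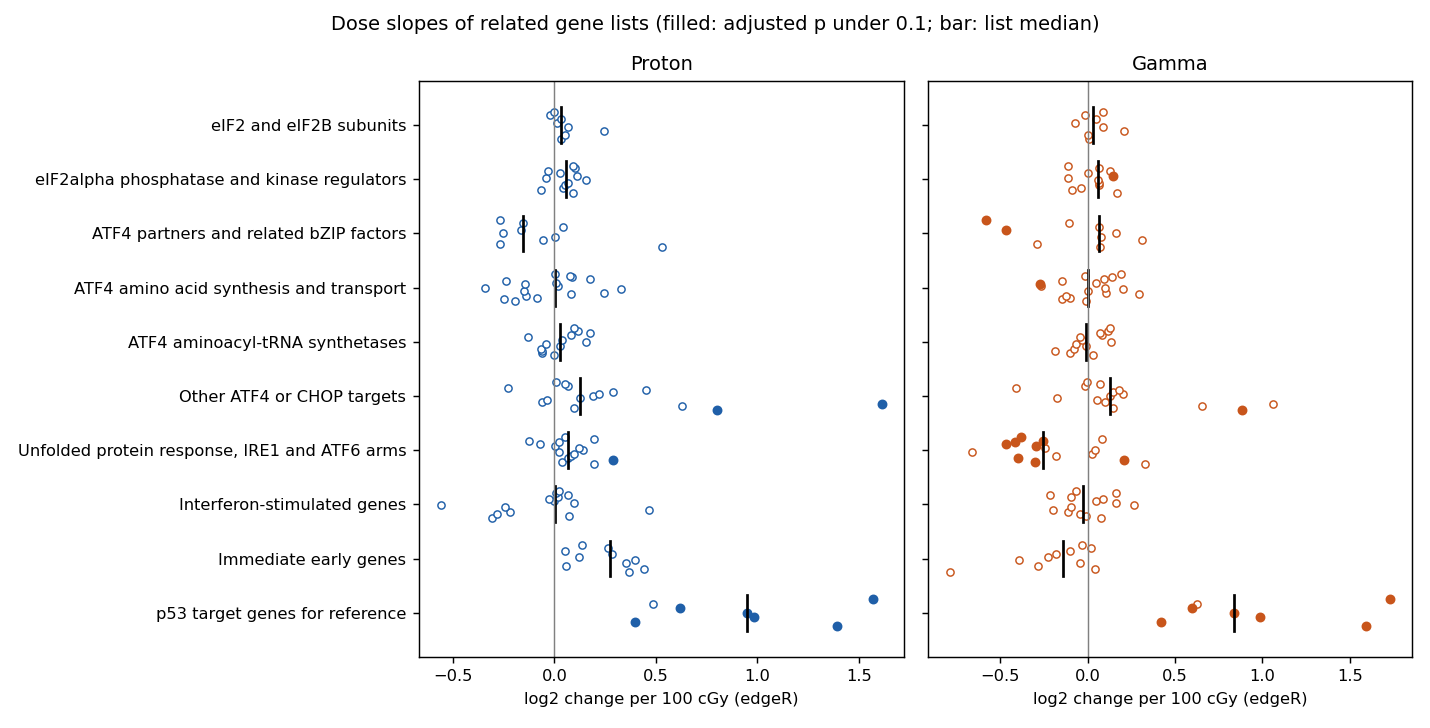
edgeR log2 slopes per 100 cGy (horizontal axes) of genes in 10 related lists (rows) after protons (left) and gamma rays (right), 1 point per gene, filled where the adjusted p is under 0.1, with a black bar at the list median. The p53 reference list lies to the right in both panels, with 6 of 7 genes called in each, and the unfolded protein response list lies to the left after gamma rays, with a median of −0.26.

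A further list held other targets of ATF4 or CHOP, of which 15 of 16 were tested. After protons 2 rose and after gamma rays 1, and none fell. Sesn2, a stress sensor that restrains mTORC1, rose by 0.80 ± 0.18 and 0.88 ± 0.18 (edgeR adjusted p of 0.0466 and 0.0151). Gdf15, a stress-induced hormone, rose after protons by 1.61 ± 0.36 (adjusted p = 0.0466) and had a gamma slope of 1.06 ± 0.39 (adjusted p = 0.13). Both are also known targets of p53, so their membership does not separate the pathways. Both proton calls were lost without the proton mouse at 10, 150 or 200 cGy, with slopes of 0.71 to 0.94 for Sesn2 and 1.42 to 1.78 for Gdf15. Tnfrsf10b, a death receptor that p53 also induces, had slopes of 0.29 ± 0.09 and 0.15 ± 0.09 and was not called by edgeR (adjusted p of 0.133 and 0.445).

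The arms of the unfolded protein response that do not use eIF2alpha gave more calls after gamma rays than after protons. Of 15 genes, 1 rose after protons, and 7 fell and 1 rose after gamma rays. The median slope was 0.07 after protons and −0.26 after gamma rays. Atf6, a sensor of the endoplasmic reticulum, was the gene that rose in both, by 0.29 ± 0.07 and 0.21 ± 0.07 (edgeR adjusted p of 0.0596 and 0.0981). The chaperone Hyou1 fell after gamma rays by 0.38 ± 0.10 and had a proton slope of 0.05 ± 0.09, and Creld2, a secreted stress protein, fell by 0.47 ± 0.13 and had a proton slope of −0.07 ± 0.13. The edgeR adjusted p of the gamma slopes were 0.0338 and 0.0514. The differences between types were 0.43 ± 0.13 and 0.39 ± 0.18, and neither passed adjustment. With the GC and length correction 1 gene of the list was called after gamma rays, and with 0 to 125 cGy alone also 1, where the gamma slope of Atf6 was −0.07. Over all tested genes 213 rose and 108 fell with gamma dose under the correction. With 0 to 125 cGy alone 29 rose and 5 fell, against 714 and 290 with all doses and no correction. The list's gamma calls numbered 1 without the gamma mouse at 0 cGy, 5 without that at 25 or 125 cGy, 0 without that at 150 cGy and 2 without that at 200 cGy. The other 15 fits that left out 1 mouse changed the number of gamma calls less, and it reached 10 at most. The proton call of Atf6 was lost without the proton mouse at 0, 5, 150 or 200 cGy.

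Interferon-stimulated genes and immediate early genes gave no call. Of 16 interferon-stimulated genes, 14 were tested, and none was called in either type. The gene with the smallest p, Ddx58, which encodes the RNA sensor RIG-I, had slopes of 0.01 ± 0.09 and 0.16 ± 0.09, Ifit3 −0.28 ± 0.20 and −0.05 ± 0.20, and Rsad2 −0.56 ± 0.56 and 0.27 ± 0.49. Of 10 immediate early genes, none was called, with a median slope of 0.27 after protons and −0.14 after gamma rays. Egr1 had 0.40 ± 0.23 and −0.39 ± 0.26, Fos 0.37 ± 0.40 and −0.79 ± 0.47, and Jun 0.06 ± 0.16 and −0.29 ± 0.18. Of the 7 p53 target genes, 6 rose in each type, among them Mdm2 by 0.40 ± 0.04 and 0.42 ± 0.05, Aen by 0.99 ± 0.09 in both types, and Ccng1, Bax and Eda2r. All 6 are among the genes that the study selected on these mice as dose-responsive to both types.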

How the data were processed

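RNA was measured in 20 mouse aortas. From strand-specific polyA libraries the authors mapped 100-base read pairs to mm9 (STAR 2.5.2a), drew the same number of reads per library in the PORT pipeline and deposited whole-number counts of sense reads for each gene. The values showed no other scaling. Samples were grouped by the labels into proton and gamma mice, with dose from the labels. The members and gene lists were chosen with earlier results of these data known, and no list is independent evidence.

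Where the mean count reached 5, a gene was fitted in edgeR 4.0.16 (TMM, robust quasi-likelihood) with an intercept and a slope for each type. Intervals are 95%. The slope difference came from the same fit and the comparison at matched doses from a fit blocked by dose. Trends were tested by exact permutation of Spearman's rho. Correlations on log2(CPM + 1) were tested two-sided with 100000 random orders of the mice within a type. Adjustment was by Benjamini-Hochberg with a threshold of 0.1. Where p-values compare single mice, they measure the spread between these mice.

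Named genes are the members, the 3 genes of each list with the smallest edgeR p, list members called in both types, the 5 genes most like Eif2ak2 and Atf4, and Cdkn1a, Mdm2 and Aen. Alternatives were DESeq2 1.42.0, no TMM, other filters and dose scales, no robust fitting, 1 surrogate variable (sva 3.50.0), 0 to 125 cGy only, a GC and length correction (GC known for 95.9% of tested genes), pseudocount 10, residuals on dose, other pairings and leaving out mice. A fit without the 2 mice of highest fat markers, the one-sided trend test and the adjustment of straight-line slopes over all genes were added after seeing the data. edgeR, trend and correlation steps were tested on simulated data. Software was pandas 2.3.3, scipy 1.17.1, numpy 2.4.6 and Python 3.11.15, with R 4.3.3. Exon positions were taken from GENCODE M1. Antisense and intron counts were not analysed here.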

Additional observations from a re-analysis of the deposited data

Results flagged for a closer look

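In 4 of the 20 sets of 10 mice (10 members in 2 radiation types), 1 mouse lay farther from the rest than Dixon's 95% limit allows. For independent, normally distributed values chance alone gives about 1 set in 20. CPM values need not be normal, and the sets of a type share their mice. The share of all genes flagged by this rule is not given here, so the count is not read as a trait of the members. After protons these were Trib3 at 6.79 CPM and Asns at 33.96 CPM in the mouse at 75 cGy. After gamma rays they were Asns at 15.3 CPM in the mouse at 100 cGy and Ppp1r15a at 55.0 CPM in the mouse at 25 cGy. The first 3 values fell in the mice with the highest fat markers of their type, and the last in the mouse with the highest immediate early genes of its type. The part of either in these counts was not tested.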

How the results depend on the processing

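Of the 10 members, 2 were called in each dose fit, Eif2ak2 and Eif2ak4. This count was 0 for both types with 0 to 125 cGy only and with log2(dose + 1), and 1 for both with dose as a rank, where Eif2ak2 kept its call. With the GC and length correction it was 0 for protons and 1 for gamma rays, and without a filter on low counts 1 for gamma rays. It was 2 for both types with DESeq2, without TMM, with a mean count of at least 50, without robust fitting, with 1 surrogate variable, without the mice at 75 cGy and without the proton mouse at 75 cGy and the gamma mouse at 100 cGy. Over all tested genes edgeR called 210 rising with proton dose and 714 with gamma dose. These numbers were 13 and 29 with 0 to 125 cGy only and 22 and 38 with log2(dose + 1). Dose as a rank gave 40 and 335, and the GC and length correction 68 and 213. Without a filter on low counts 463 rose with gamma dose. Leaving out single mice gave 0 to 2 called members in either fit. The rank test called 1 member in each type. It called 0 with 0 to 125 cGy only in both types and 0 on TMM CPM for gamma rays, and as a one-sided test 2 for protons. Leaving out mice gave 0 to 1 for protons and 0 to 0 for gamma rays, and 0 to 1 of the 58 correlations. No member was called for a slope difference or at matched doses in any alternative run.

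Some slopes that were not called changed sign. With the GC and length correction these were proton Ddit3 (0.0597) and Chac1 (0.087) and gamma Eif2ak1 (−0.051), Atf4 (0.0372), Asns (−0.0319) and Chac1 (0.0191). With 0 to 125 cGy only they were proton Asns (0.501), gamma Eif2ak3 (−0.0199), the gamma rho of Atf4 (0.132) and the slope difference of Eif2ak2 (0.154), together with the called gamma slopes of Eif2ak4 (−0.0531) and Atf6 (−0.0705). Proton Asns was 0.0207 with dose as a rank and 0.298 with log2(dose + 1), where gamma Asns was −0.0261. Gamma Asns was −0.134 with 1 surrogate variable and −0.167 without the proton mouse at 75 cGy and the gamma mouse at 100 cGy. Gamma Eif2ak1 was −0.00824 with DESeq2, −0.0041 with a mean count of at least 50, −0.000209 with 1 surrogate variable, −0.00443 without the mice at 75 cGy and −0.00703 without those 2 mice. The cause was not tested.

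Over the fits that left out single mice, slopes ran from −0.0499 to 0.0376 (proton Eif2ak1), −0.196 to 0.142 (proton Ddit3), −0.362 to 0.205 (proton Asns), −0.243 to 0.278 (proton Chac1), −0.0308 to 0.0234 (gamma Eif2ak1), −0.0649 to 0.0119 (gamma Atf4), −0.337 to 0.0768 (gamma Trib3), −0.154 to 0.178 (gamma Asns) and −0.243 to 0.0201 (gamma Chac1). The Eif2ak2 slope difference ran from −0.127 to 0.0806 and the gamma rho of Atf4 from −0.209 to 0.159. The gamma calls of Impact, Atf6 and Aldh18a1 were lost in 14, 14 and 15 of 20 such fits.

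With a replicate block for the mice of each dose, the slope difference was −0.04 for Eif2ak2 and 0.08 for Eif2ak4, and 0 members were called. Without the block at matched doses, Eif2ak2 was at 0.18 and Eif2ak1 at 0.12, also with 0 calls. The labels name only the dose as shared by the mice of a dose. At some doses their libraries were also alike in base composition. The GC correlations of the proton and gamma mouse were 0.28 and 0.28 at 5 cGy and −0.40 and −0.39 at 150 cGy. At 50 cGy they were −0.02 and 0.14. The correlation of the paired deviations from the type means ran from −0.51 at 100 cGy to 0.56 at 200 cGy. Depth limited Chac1, whose counting error alone is 39.2% of the mean proton count against a spread between mice of 46.0%. For Trib3 these were 25.2% and 68.3%.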
